A study of Mus musculus with 24 samples.

Results

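The genes described here are 63 genes of mitosis, chosen by their symbols alone from the 12611 symbols of a mouse lens count table: the centromere protein (Cenp) family, the Bub and Mad checkpoint genes, the Ndc80 and Ska complexes, the A and B type cyclins with Cdk1 and the Cdc25 phosphatases, the Aurora and Polo-like kinases, the chromosomal passenger complex, condensin, and Top2a, Mki67, Tpx2, Anln, Nusap1 and Cdc20. The rule uses no measured value. The rule takes genes by name, so it also takes Cenpb and Cenpv, which are linked to centromeres, and Mad2l2, which is linked to DNA repair. These 3 were not placed in any of the roles below and are kept apart.

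The libraries were made from total RNA of microdissected tissue, the epithelium and the fiber cells of the lens, from CD1 mice, an outbred stock, with no other allele or agent named in the labels. There were 3 biological replicates of each tissue at 4 stages, the newborn stage P0.5 and the embryonic stages E18.5, E16.5 and E14.5, where the number is the day, which makes 24 libraries. The labels do not state whether a replicate pools several animals, and p-values measure the spread between these samples. Library totals were 7658794 to 11819117 counts in epithelium and 13010174 to 21617737 in fiber. Levels below are CPM (counts scaled to a common library size) after adjustment with edgeR's TMM scaling, which takes the bulk of genes as equal between libraries.

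A kinetochore is the protein assembly built on each centromere during cell division. Its inner layer sits on chromatin that holds the histone variant CENP-A, and its outer layer, centred on the Ndc80 complex, grips the microtubules of the spindle. The spindle checkpoint reads kinetochores that are not yet attached and holds back the anaphase-promoting complex until all are. In the lens, dividing cells lie in the epithelium, and cells that become fibers leave the cell cycle.

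The labels were checked against marker genes. All 7 markers of lens epithelium, among them the transcription factor Foxe3 and the cadherin Cdh1, were lower in fiber, with a summed level of 2244 to 3030 CPM in epithelium and 221 to 384 CPM in fiber. All 8 markers of lens fiber, among them the water channel Mip and the beaded filament gene Bfsp2, were higher in fiber, at 38288 to 97714 CPM against 996 to 1621 CPM in epithelium. The epithelium libraries also held RNA of other cell types: summed endothelial markers stood at 231 to 438 CPM in epithelium and 10.7 to 36.6 CPM in fiber, mural cell markers at 105 to 344 and 5.51 to 26.5 CPM, mesenchyme markers at 364 to 723 and 26.6 to 111 CPM, macrophage markers at 7.36 to 17.1 and 1.04 to 4.11 CPM, and none of the 8 endothelial and 6 mural markers was at 0 in any group; Pdgfra stands in both the lens epithelium and the mesenchyme list. The part of these cells in the differences described below was not tested. In bulk tissue, fewer dividing cells and less RNA per cell cannot be told apart.

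The mitotic genes were far lower in fiber than in epithelium at every stage. A gene is called higher or lower here where edgeR's quasi-likelihood test gave an adjusted p under 0.05 over all 12427 genes tested and the difference was at least 2-fold. All 63 genes passed the filter on low counts. In the comparison averaged over 4 stages 53 of 63 were lower, where 22.2% of all genes tested were lower, and 1 was higher, where 15.7% of all genes were. The median difference of the 63 genes was -3.30 on the log2 scale, a 9.83-fold lower level in fiber, beside -0.03 for all genes.

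By stage, 54 were lower at E14.5 (19.4% of all genes), then 52 (E16.5, 20.4%), 53 (E18.5, 24.2%) and, in newborns, 54 (24.5%). One gene, Cenpv, was higher at each stage, where 14.0%, 14.6%, 17.4% and 17.5% of all genes were higher. The median log2 difference was -3.34, -3.72, -3.88 and -3.24 at the 4 stages. A set of 52 genes was lower at all 4 stages, and 7 were lower at none. The same shares over all genes were not counted, and the first can be at most the 19.4% of E14.5. In 56 genes every fiber library stood below every epithelium library of its stage at all 4 stages, which 31.1% of all genes tested did. At single stages this held for 59 genes (E14.5, all genes 39.2%), 58 (E16.5, 40.9%), 56 (E18.5, 43.0%) and 56 (P0.5, 43.3%), and the reverse order for 2 (39.3%), 2 (39.5%), 3 (40.2%) and 4 (39.6%).

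Without the 2-fold minimum, the averaged comparison had 58 genes lower (all genes 46.4%) and 3 higher (44.0%). By stage in the same order, 59 (all genes 38.4%), 58 (39.7%), 57 (42.5%) and 56 (43.3%) were lower, and 2 (38.4%), 2 (38.2%), 3 (39.8%) and 4 (39.6%) were higher. The members that this rule adds are those with a difference under 2-fold, which are given one by one below.

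**Figure D1:**
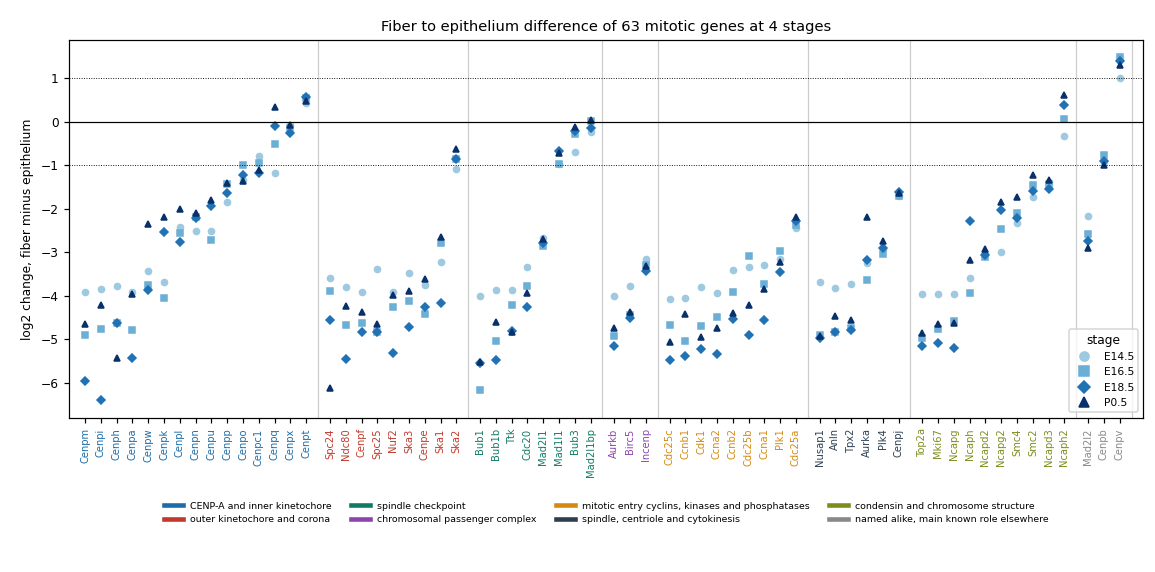
Log2 difference between fiber and epithelium (vertical axis) of each of the 63 genes (horizontal axis), grouped and coloured by role, with 1 symbol per stage and dotted lines at 2-fold. Most genes lie between -2 and -6, and Cenpt, Cenpv, Ncaph2, Cenpq and Mad2l1bp lie above 0 at 1 or more stages.

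The level that was left in fiber, as a percent of the epithelium mean of the same stage, had a median over the 63 genes of 9.87%, 7.25%, 6.04% and 10.7% at the 4 stages, from E14.5 to P0.5. Summed over the 63 genes, the level was 3610 ± 90.4 CPM (SD, n = 3) in E14.5 epithelium and 545 ± 55.1 CPM in E14.5 fiber, and 1873 ± 107 and 405 ± 18.8 CPM at P0.5. As a ratio of these sums, the fiber level of the 63 genes was 15.1%, 16.9%, 17.0% and 21.6% of epithelium at the 4 stages. The lens epithelium markers, summed in the same way in the same libraries, were at 15.1%, 10.6%, 8.73% and 9.57%. Whether epithelial cells in the fiber samples account for any of the mitotic gene level was not tested.

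The order of the genes differed between the tissues. Per kilobase of annotated exon, the highest in E14.5 epithelium were Mki67 (54.3 CPM per kb), Top2a (48.8) and Smc4 (29.0), with a median over the 63 genes of 7.32 CPM per kb. In P0.5 fiber the first 6 were Ncaph2 (19.2), Cenpb (6.56), Cenpx (5.81), Cenpt (4.92), Bub3 (4.79) and Ska2 (4.49), with a median of 0.436 CPM per kb. None of these 6 was called lower in the averaged comparison. Ncaph2 and Ska2 overlap genes on the other strand, as described below, so their levels are uncertain.

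Since 53 of the genes were lower in fiber together, their promoters are shown for a few. Genes expressed in G2 and mitosis are known to carry a cell cycle genes homology region (CHR), a short element near the start site that the MuvB complex binds, often with a CCAAT box, the site of NF-Y, upstream of it. The stretches below are the 120 bases before the start site in RefSeq (GRCm38.p6), 5′ to 3′ on the strand of the gene, with capitals marking TTTGAA or TTTAAA (CHR) and CCAAT, each on either strand. The first 4 are strongly lower genes with a CHR in this stretch. Mki67 and Ncapg have a CHR and no CCAAT here, and Bub1 has CCAAT boxes and no CHR. Cenpb, which was under 2-fold lower on average, and Cenpv, which was higher, have neither. Cenpq, also within 2-fold, has CCAAT boxes and no CHR. The genes were picked among those with 1 start site, to show each kind of match, and do not stand for the rest.
Mki67, chr7:135716380-135716499, minus strand: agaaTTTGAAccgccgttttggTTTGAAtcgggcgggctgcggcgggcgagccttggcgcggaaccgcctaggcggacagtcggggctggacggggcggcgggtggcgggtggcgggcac
Top2a, chr11:99024190-99024309, minus strand: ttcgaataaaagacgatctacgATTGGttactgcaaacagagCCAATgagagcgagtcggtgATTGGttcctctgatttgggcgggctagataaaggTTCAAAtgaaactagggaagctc
Cdk1, chr10:69352913-69353032, minus strand: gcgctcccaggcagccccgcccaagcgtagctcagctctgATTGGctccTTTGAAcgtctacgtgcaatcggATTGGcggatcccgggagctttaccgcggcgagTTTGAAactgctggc
Cdc20, chr4:118437344-118437463, minus strand: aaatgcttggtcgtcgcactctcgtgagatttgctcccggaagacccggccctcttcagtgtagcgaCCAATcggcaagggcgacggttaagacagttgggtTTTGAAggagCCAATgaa
Ncapg, chr5:45669805-45669924, plus strand: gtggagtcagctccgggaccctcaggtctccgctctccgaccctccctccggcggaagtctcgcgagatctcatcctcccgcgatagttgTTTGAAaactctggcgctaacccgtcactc
Bub1, chr2:127831860-127831979, minus strand: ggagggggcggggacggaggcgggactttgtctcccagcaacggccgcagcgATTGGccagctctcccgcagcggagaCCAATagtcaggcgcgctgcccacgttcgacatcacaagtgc
Cenpb, chr2:131180068-131180187, minus strand: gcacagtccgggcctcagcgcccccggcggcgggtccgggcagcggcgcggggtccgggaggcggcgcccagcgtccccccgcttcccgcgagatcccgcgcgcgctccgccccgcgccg
Cenpv, chr11:62539262-62539381, minus strand: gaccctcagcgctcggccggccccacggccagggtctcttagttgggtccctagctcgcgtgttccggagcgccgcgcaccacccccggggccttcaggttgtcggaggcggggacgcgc
Cenpq, chr17:40934575-40934694, minus strand: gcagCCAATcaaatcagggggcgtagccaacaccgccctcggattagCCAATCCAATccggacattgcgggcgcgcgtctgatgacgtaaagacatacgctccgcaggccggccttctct

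The letters were counted over 300 bases, from 250 before to 50 after the start, in the 55 of 63 genes that matched a RefSeq promoter. Overlaps between motifs were not excluded, and TTTAAA reads the same on both strands. A CHR was present in 30 of 55 genes (54.5%), beside 22.1% of 9627 matched genes of the count table. A CCAAT was present in 35 (63.6%) beside 43.3%, and both in 22 (40%) beside 9.08%. Of the genes lower in fiber 28 of 45 (62.2%) held a CHR, and of those not called lower 2 of 10 (20%), with a CCAAT in 31 (68.9%) and 4 (40%) of them. Bub3, not called lower, has 2 annotated starts, and before one of them a CHR begins at 43 bases and CCAAT boxes at 74 and 32. In Cdc20 a CHR began 18 bases before the start, and in Cdk1 15 bases before it. These are matches of letters, given as a description with no test.

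The inner kinetochore, 15 genes from the CENP-A histone to the network of proteins around it, had 12 genes lower in fiber in the averaged comparison and none higher, with a median log2 difference of -2.25. Cenpm (-4.86), Cenpi (-4.81), Cenph (-4.62) and the histone gene Cenpa itself (-4.53) were the lowest. Cenpq, Cenpt and Cenpx were within 2-fold, Cenpq and Cenpt with an edgeR adjusted p under 0.05. Cenpc1, which encodes the protein that links CENP-A chromatin to the outer kinetochore, stood at 54.1, 54.4 and 46.6 CPM in the 3 epithelium libraries of E14.5 and at 28.4, 28.4 and 32.9 CPM in fiber. At P0.5 it stood at 46.4, 40.6 and 41.0 CPM against 20.1, 18.7 and 20.7 CPM. The groups did not overlap at any stage, yet its averaged difference of -1.01 lay at the 2-fold limit and fell short of it in 9 of the 24 fits that left out 1 library.

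The outer kinetochore and corona had 8 of 9 genes lower, with a median of -4.37. These are the Ndc80 complex genes Ndc80 (-4.54), Nuf2 (-4.37), Spc24 (-4.54) and Spc25 (-4.43), the Ska complex genes Ska1 (-3.21) and Ska3 (-4.06), the kinesin gene Cenpe (-4.01) and Cenpf (-4.44), with Ska2 as the exception. Cenpf, a large coiled-coil protein of the corona, stood at 207, 207 and 207 CPM in E14.5 epithelium and at 13, 10.7 and 17.0 CPM in E14.5 fiber. At P0.5 the values were 110, 97.2 and 96.5 CPM in epithelium and 4.18, 5.59 and 4.51 CPM in fiber, 21.3-fold lower. No fiber library came near the epithelium range.

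The spindle checkpoint split into 5 lower genes and 3 that were not called. Bub1, a kinase that recruits the other checkpoint proteins to the kinetochore, had the largest averaged difference of all 63 genes, -5.32 (edgeR adjusted p = 2.24e-25). The pseudokinase gene Bub1b (-4.75), the kinase gene Ttk (-4.44), Cdc20, the activator that the checkpoint inhibits (-3.83), and Mad2l1 (-2.75) were lower as well. Bub1b stood at 77.6, 74.3 and 82.2 CPM in E14.5 epithelium against 5.77, 3.46 and 6.58 CPM in fiber, and at P0.5 at 28.9, 27.7 and 30.0 CPM against 1.52, 1.36 and 0.63 CPM. Bub3, Mad1l1 and Mad2l1bp were within 2-fold and are described further on.

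All 3 genes of the chromosomal passenger complex, which corrects faulty attachments, were lower: Aurkb, its kinase (-4.71), Birc5 (-4.28) and the scaffold gene Incenp (-3.30). Incenp stood at 70.8, 69.4 and 81.1 CPM in E14.5 epithelium and 9.61, 7.38 and 7.59 CPM in fiber, and its fiber level held between 9.07% and 11.1% of epithelium at the 4 stages. For Aurkb the fiber level was 6.21% of epithelium at E14.5 and 2.77% at E18.5.

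All 9 genes of mitotic entry were lower, with a median of -4.06. They include the kinase gene Cdk1 (-4.67), its cyclins Ccnb1 (-4.73), Ccnb2 (-4.06) and Ccna2 (-4.63), the Polo-like kinase gene Plk1 (-3.21) and the phosphatase genes Cdc25c (-4.82), Cdc25b (-3.88) and Cdc25a (-2.32). Ccna2 stood at 110, 101 and 107 CPM in E14.5 epithelium and 8.22, 4.11 and 7.84 CPM in fiber, and at 57.5, 64.2 and 61.8 against 1.38, 2.26 and 1.15 CPM at E18.5, 38.3-fold lower. Ccna1, the germ cell form of cyclin A, was near the limit of detection in both tissues, at 0.624 ± 0.254 CPM in P0.5 epithelium, where the 3 fiber libraries together held 1 count.

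The 6 genes of spindle, centriole and cytokinesis were all lower, with a median of -3.76. Tpx2, which activates Aurora A on the spindle, stood at 97.6, 96.8 and 98.3 CPM in E14.5 epithelium and 8.42, 5.42 and 7.76 CPM in fiber, and at 41.5, 36.6 and 42.4 against 1.65, 2.39 and 0.84 CPM at P0.5. Nusap1 (-4.63) and Anln, which organises the cleavage furrow (-4.49), differed by a similar size. The centriole genes Plk4 (-2.91) and Cenpj (-1.66) differed less, and for Cenpj the fiber level was the nearest to epithelium of the 6.

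**Figure D2:**
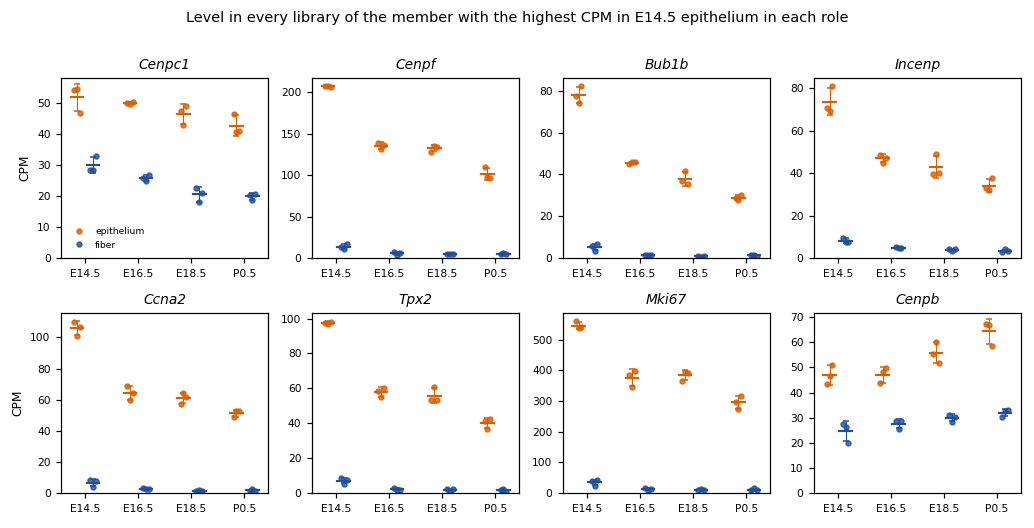
Level in CPM (vertical axis, from 0) in each of the 3 libraries of each stage (horizontal axis) for the gene of each role with the highest CPM in E14.5 epithelium; points are libraries, bars are means and whiskers SD. Epithelium means are lower at P0.5 than at E14.5 for all but Cenpb, every fiber point lies below the epithelium points of its stage, and the tissues are nearest for Cenpc1 and Cenpb.

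Condensin and chromosome structure had 9 of 10 genes lower, with a median of -2.68. Mki67, which coats mitotic chromosomes, stood at 560, 537 and 542 CPM in E14.5 epithelium and at 39.2, 24.4 and 41.3 CPM in fiber; at P0.5 the values were 297, 274 and 317 against 10.3, 15.2 and 9.13 CPM. Top2a, the topoisomerase that untangles chromosomes, differed by -4.74. The fiber level of Mki67 was 2.96% to 6.40% of epithelium over the stages, and that of Top2a 2.82% to 6.34%.

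Condensin exists in 2 forms that share Smc2 and Smc4: condensin I, with Ncapd2, Ncapg and Ncaph, and condensin II, with Ncapd3, Ncapg2 and Ncaph2, which is nuclear also outside mitosis. The condensin I genes were lower in fiber by -3.03 (Ncapd2), -4.59 (Ncapg) and -3.24 (Ncaph). Their condensin II counterparts differed by -1.42 (Ncapd3), -2.33 (Ncapg2) and 0.19 (Ncaph2). In E14.5 libraries Ncapg stood at 56.8 ± 3.78 CPM (SD, n = 3) in epithelium and 3.56 ± 1.08 in fiber, Ncapg2 at 60.0 ± 0.56 and 7.42 ± 1.5.

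The balance was tested within libraries, as the log2 ratio of the counts of 2 genes plus 0.5, with an exact two-sided permutation of tissue labels within stage. The ratio of Ncapd2 to Ncapd3 was lower in fiber by -1.61, with 0.36 to 1.10 in the 12 epithelium libraries and -1.33 to -0.59 in the 12 fiber libraries. For Ncapg to Ncapg2 the difference was -2.32, and for Ncaph to Ncaph2 it was -3.46. Each gave p = 1.25e-05, the smallest that 160000 permutations can give, and 1.5e-05 adjusted over the 6 pairs tested (exact permutation test). All 3 condensin I genes therefore had a lower share against their condensin II counterpart in fiber than in epithelium, and the ranges of the libraries did not overlap for any of the 3 pairs. Ncapg and Ncaph2 overlap genes on the other strand, as described below, so the pairs that hold them share that uncertainty.

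**Figure D3:**
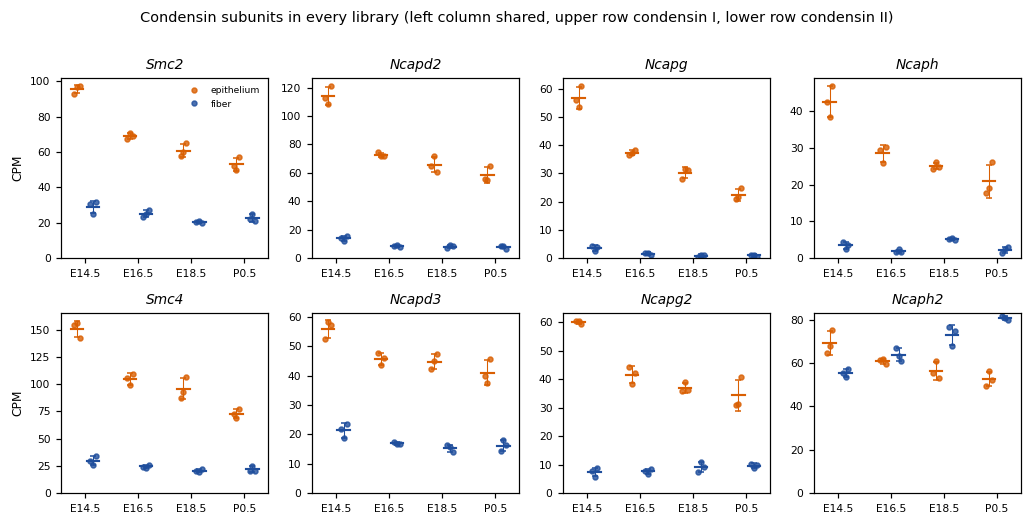
Level in CPM (vertical axis, from 0) of the condensin genes in every library by stage (horizontal axis), with means and SD; the shared Smc2 and Smc4 are on the left, condensin I genes in the upper row and condensin II genes in the lower row. Ncapd2, Ncapg and Ncaph lie near the bottom of their panels in fiber, and Ncaph2 in fiber rises above epithelium from E18.5 on this TMM scale.

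The other 3 pairs also differed. The ratio of Cdc25a, the phosphatase that also acts at entry into S phase, to Cdc25b was higher in fiber by 1.60, and that of Aurka, the spindle pole kinase, to Aurkb by 1.66 (both exact permutation p = 1.25e-05, 1.5e-05 adjusted). The ratio of Ccnb1 to Ccnb2 was lower by -0.73 (exact permutation p = 0.00145, the same adjusted), and here the libraries of the 2 tissues overlapped, from -0.17 to 0.71 in epithelium and from -1.58 to 0.44 in fiber. For Aurka to Aurkb the difference was 0.72 at E14.5 and 2.71 at P0.5.

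Not called lower in fiber were 10 of the 63 genes, and 9 of these were within 2-fold. Among checkpoint genes, Bub3, which binds Bub1 and Bub1b and also takes part in splicing, differed by -0.32. It stood at 52.2, 43.5 and 52.4 CPM in E14.5 epithelium and 29.9, 31.4 and 30.0 CPM in fiber, and at 39.2, 35.1 and 34.9 against 32.8, 33.0 and 35.0 CPM at P0.5. The tissues did not overlap at the first 2 stages and overlapped at E18.5 and P0.5.

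Mad1l1, which carries Mad2 to the kinetochore, differed by -0.83 and stood at 24.9, 29.0 and 28.0 CPM in E14.5 epithelium against 12.9, 14.4 and 14.6 CPM in fiber. Mad2l1bp, which helps to dismantle the checkpoint complex, stood at 4.04, 2.69 and 4.56 CPM against 2.98, 2.99 and 3.71 CPM at E14.5 and overlapped at all 4 stages, with an averaged difference of -0.08. So 3 of the 8 checkpoint genes kept a level in fiber within 2-fold of epithelium.

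In the inner kinetochore, Cenpt, which tethers the Ndc80 complex, was the one gene with every fiber library above every epithelium library at all stages without passing 2-fold (0.51). It stood at 17.1, 16.8 and 19.9 CPM in E14.5 epithelium and 25, 23.8 and 23.6 CPM in fiber. Cenpx, a histone-fold protein that also acts in DNA repair, overlapped at all 4 stages (-0.14), with 9.34, 6.28 and 7.98 CPM against 7.56, 7.38 and 7.33 CPM at E14.5. Ska2 of the outer kinetochore differed by -0.86, with 37.0, 35.1 and 36.7 CPM against 18.4, 15.2 and 17.1 CPM at E14.5 and no overlap at any stage.

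Cenpq changed places with time under TMM scaling. It stood at 13.5, 13 and 13.1 CPM in E14.5 epithelium and 4.64, 5.23 and 7.59 CPM in fiber, and was lower in fiber at that stage (-1.19). At P0.5 it stood at 9.09, 8.58 and 9.21 CPM in epithelium and 13.3, 11.2 and 10.1 CPM in fiber, with every fiber library above every epithelium library (0.35, within 2-fold). Ncaph2 of condensin II did likewise: 64.7, 67.7 and 75.3 CPM in E14.5 epithelium against 55.5, 53.5 and 57.1 CPM in fiber, then 49.6, 56.2 and 52.3 against 81.5, 80.7 and 79.8 CPM at P0.5 (-0.32 and 0.61). The exons of Ncaph2 overlap those of genes on the other strand, and since how the counting treated strand is not stated in the labels, its level is uncertain.

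The same holds for Ska2 and for Ccna1, Ccna2, Cdc25c, Cenpo, Cenpp, Cenpu and Ncapg, the 9 genes that share at least 10% of their exon bases with another gene. Where libraries were scaled by their total counts alone, the median of all genes in the averaged comparison moved to -1.23, and Ncaph2 then stood at -1.02, the opposite direction and called lower, about as far from the shifted median of all genes as under TMM. On that scale Bub3 (-1.52), Cenpq (-1.56), Cenpx (-1.34), Mad1l1 (-2.04), Mad2l1bp (-1.28), Ska2 (-2.06) and Cenpb (-2.11) were called lower too. With crystallins and Rn45s left out of the library size the median of all genes was -0.63. Cenpb (-1.50), Mad1l1 (-1.43) and Ska2 (-1.46) were called lower on that scale. On average these 3 were thus within 2-fold under TMM and under neither of the other scalings. At P0.5 the median of all genes was -0.06 under TMM, -1.50 with library size only and -0.71 without crystallins and Rn45s. Those shifts exceed the P0.5 differences of Cenpq and Ncaph2 given above, so their place above epithelium there depends on the scaling. The averaged direction of Cenpt depends on it too.

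Of the 3 genes named alike, Cenpv, a protein linked to microtubules and to chromatin at centromeres, was the single gene called higher in fiber: a log2 difference of 1.30 ± 0.12 (SE, edgeR adjusted p = 2.65e-10). It stood at 2.85, 2.55 and 3.12 CPM in E14.5 epithelium and 5.10, 7.29 and 4.89 CPM in fiber, and at 2.64, 3.40 and 3.48 against 8.36, 9.18 and 6.19 CPM at P0.5. Every fiber library was above every epithelium library at all 4 stages, as it was for 30.2% of all genes tested. The call depended on the scaling: the difference was 0.10 with library size only and 0.70 with crystallins and the ribosomal RNA precursor Rn45s left out of the library size, neither of them called. At E14.5, where the difference was 2-fold, the call was also lost with DESeq2, with no filter, with the replicate block, and without E14.5 epithelium replicate 2 or E14.5 fiber replicate 2.

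Cenpb, which binds a motif of centromeric repeats, stood at 43.4, 46.8 and 51.1 CPM in E14.5 epithelium and 27.4, 26.4 and 20.1 CPM in fiber (averaged difference -0.90, within 2-fold). Mad2l2, a HORMA protein of translesion synthesis and DNA repair, was lower in fiber by -2.60, with 19.2 ± 2.62 CPM in E14.5 epithelium and 4.32 ± 0.82 in fiber.

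**Figure D4:**
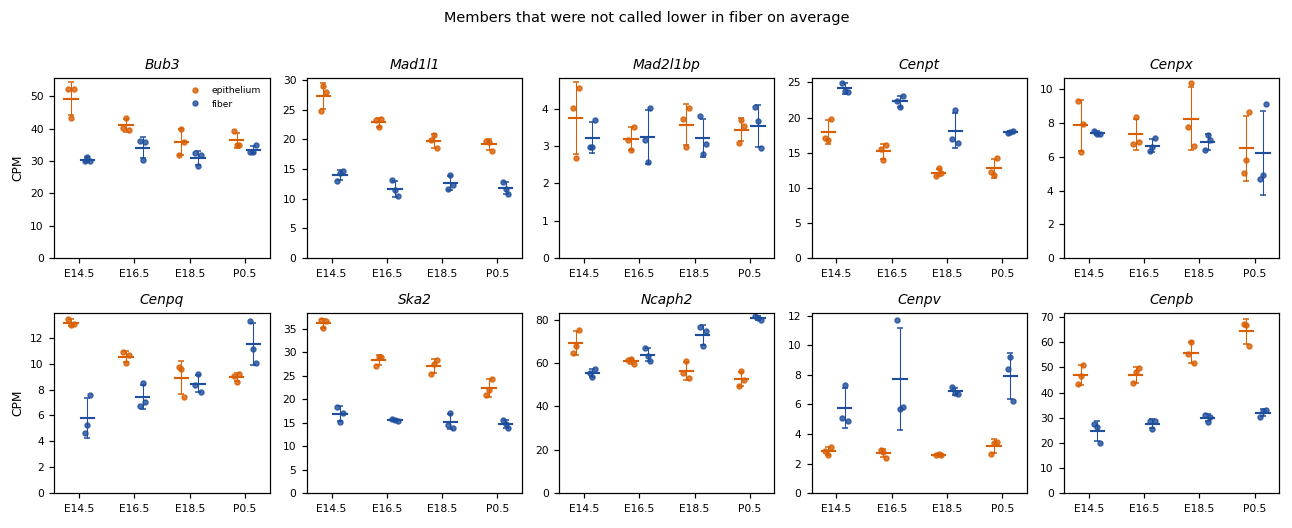
Level in CPM (vertical axis, from 0) by stage (horizontal axis) of the 10 genes not called lower in fiber on average; points are libraries, bars are means and whiskers SD. On this TMM scale Cenpq and Ncaph2 cross between the tissues, Cenpt and Cenpv are higher in fiber at every stage, and Cenpb, Mad1l1 and Ska2 stay below epithelium.

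With age the mitotic genes fell in the epithelium. From E14.5 to P0.5, 29 of 63 fell and none rose, where 3.21% of all genes tested were lower and 10.1% higher, and the median log2 change was -0.97. With library size only, 18 fell. With no minimum fold change 57 were lower (all genes 28.6%) and 2, Mad2l2 (0.61) and Cenpb (0.45), were higher (all genes 30.2%). The fall touched most roles: 5 of 8 checkpoint genes, 5 of 9 of the outer kinetochore, 6 of 9 of mitotic entry, 4 of 6 of spindle and cytokinesis, 4 of 10 of condensin and chromosome structure, and 3 of 15 of the inner kinetochore.

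The 3 largest falls in epithelium were Ccna1 (-1.64), Cenpe (-1.50) and Bub1b (-1.43). Cenpe, the kinesin that carries chromosomes to the spindle equator, stood at 146, 150 and 158 CPM at E14.5, then 89.4, 86.3 and 86.6 (E16.5), 69.6, 75.8 and 74.4 (E18.5) and 56.6, 48.2 and 55.9 CPM (P0.5). No library of one stage overlapped the next. Ccna1 went from 2.06, 2 and 1.74 CPM to 0.773, 0.769 and 0.331 CPM.

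Most of this took place early. From E14.5 to E16.5 only Ccna1 passed 2-fold (-1.05; all genes lower 0.821%, higher 1.71%), and this call was lost when E16.5 epithelium replicate 2 was left out and under DESeq2. Without E14.5 epithelium replicate 2 there were 2 such calls. With no minimum fold 48 genes were lower (all genes 12.0%) and none higher (10.8%), with a median of -0.59.

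The next steps were small. From E16.5 to E18.5 edgeR called 0 genes lower and 0 higher (all genes 0.547% and 6.75%), with 11 at an unadjusted p under 0.05, and with no minimum fold 4 were lower (13.8%) and 2 higher (17.0%). From E18.5 to P0.5 it called 0 lower and 0 higher (0.426% and 0.579%), with 30 at an unadjusted p under 0.05, and with no minimum fold 19 were lower (6.82%) and 1 higher (6.43%). DESeq2 called 0 lower in both steps, and without E18.5 epithelium replicate 1 edgeR called 1 lower in the last. In the 29 genes that fell, a median of 58.8% of the log2 fall came in the first step, with a range of 45.2% to 88.0%. The same E14.5 libraries enter the choice of these genes and the first step.

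Other cell types changed in the epithelium over the same time. Of the mesenchyme markers 5 of 6 fell, and their summed level went from 641 to 723 CPM at E14.5 to 376 to 418 CPM at P0.5. Their median log2 change was -2.01, a steeper fall than that of the sum. The one not called was Pdgfra (-0.63), which also stands in the lens epithelium list. Pigment cell markers rose (6 of 6), from 4.20 to 11.2 CPM at E14.5 to 70.4 to 159 CPM at P0.5, and retina markers rose (7 of 8), from 12.3 to 29.1 to 142 to 194 CPM. Of the 8 endothelial markers none was called, and summed they went from 364 to 412 CPM to 267 to 321 CPM. Mural cell markers rose in 2 of 6, from 105 to 143 CPM to 309 to 343 CPM. Both red cell genes tested, the embryonic globin Hbb-y and Alas2, fell, and the list's sum went from 155 to 244 CPM at E14.5 to 12.2 to 19.0 CPM at E16.5 and 2.37 to 3.33 CPM at P0.5. None of the 5 macrophage markers was called. Their part in the fall of the mitotic genes was not tested. Of the 7 lens epithelium markers 1 rose and none fell.

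In fiber the mitotic genes fell further from an already low level. From E14.5 to P0.5, 30 of 63 fell and none rose, where 5.24% of all genes tested were lower and 6.69% higher, and the median log2 change was -1.01. With no minimum fold 41 were lower (all genes 27.2%) and 3 higher (27.3%). The roles with the most falls were the outer kinetochore (7 of 9), mitotic entry (6 of 9), the checkpoint (5 of 8) and the passenger complex (3 of 3), and the fewest were in the inner kinetochore (3 of 15) and condensin and chromosome structure (3 of 10).

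The 3 largest falls in fiber were Spc24 (-3.30), Bub1 (-2.88) and Cenph (-2.44). Bub1 stood at 4.71, 4.39 and 4.30 CPM in E14.5 fiber, then 0.893, 0.333 and 0.654 (E16.5), 1.04, 0.266 and 0.845 (E18.5) and 0.760, 0.798 and 0.210 CPM (P0.5), so that the E14.5 libraries were above all later ones. Spc24, a subunit of the Ndc80 complex, stood at 0.530, 0.654 and 1.10 CPM at E14.5 and 0.253, 0 and 0 CPM at P0.5. Its change was -6.31 without P0.5 fiber replicate 1, where no count is left at P0.5 and the fitted value is no bound, and -2.60 without P0.5 fiber replicate 2. The P0.5 value of Spc24 rests on 2 counts in 3 libraries, and epithelium over fiber at that stage was 79.4 with a 95% counting interval of 21.8 to 659. Cenph went from 1.06, 0.280 and 1.43 CPM to 0.253, 0.160 and 0.105 CPM.

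Here too the first step was the largest. From E14.5 to E16.5, 24 genes fell in fiber (all genes lower 1.61%), with a median of -0.83, and none rose (1.46%). With no minimum fold 36 were lower (all genes 7.6%) and 1 was higher (9.25%). Bub1 (-2.86), Spc25 (-1.99), Bub1b (-1.95) and Cenpi (-1.82) led. In the 30 genes that fell by P0.5, a median of 83.9% of the log2 fall came in this step. In E14.5 fiber the 3 libraries differed in a common direction: replicate 2 held the lowest value of 40 of the 63 genes, with 484 CPM summed against 564 and 589 CPM in the others, and its lens epithelium markers summed to 328 CPM against 384 and 356 CPM. Lens epithelium markers in fiber fell in 2 of 7 and rose in 1 of 7 from E14.5 to P0.5, from 328 to 384 CPM summed at E14.5 to 221 to 278 CPM at P0.5. Mesenchyme markers fell in 4 of 6, from 98.3 to 111 CPM summed to 26.6 to 47.9 CPM, and both red cell genes tested fell, from 18.9 to 30.2 CPM to 0.210 to 1.04 CPM. The part of these cells in the fall was not tested.

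The later steps in fiber moved single genes, which are named here because of their values. From E16.5 to E18.5, 2 genes rose (all genes 1.91%): Ncaph of condensin I (1.47, edgeR adjusted p = 0.00026) and Cenpk (1.20, edgeR adjusted p = 0.012), and Cdc25b fell (-1.22, edgeR adjusted p = 0.026; all genes lower 0.724%). Ncaph then fell from E18.5 to P0.5 (-1.14, edgeR adjusted p = 0.01), the only gene called in that step (all genes lower 0.241%, higher 0.298%). It stood at 4.44, 2.43 and 3.54 CPM in E14.5 fiber, then 1.49, 2.33 and 1.68 (E16.5), 5.27, 5.32 and 4.92 (E18.5) and 1.39, 2.39 and 3.04 CPM (P0.5), and every E18.5 library was above those of the other 3 stages.

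The fall of Ncaph was lost without P0.5 fiber replicate 1, and without P0.5 fiber replicate 3 the number of genes that rose in that step was 1. Without E16.5 fiber replicate 2 the number of genes that rose from E16.5 to E18.5 was 1, and Cdc25b was no longer called without 4 of the 6 libraries: the number that fell was 0 without E16.5 fiber replicate 1, E16.5 fiber replicate 2 or E18.5 fiber replicate 3, 1, another gene, without E18.5 fiber replicate 2, 2 without E16.5 fiber replicate 3 and 3 without E18.5 fiber replicate 1. With library size only, 9 genes fell and 1 rose in this step. With no minimum fold 5 were lower (all genes 9.19%) and 3 higher (12.9%) from E16.5 to E18.5, and 1 was lower (3.35%) and none higher (2.86%) from E18.5 to P0.5.

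The fall from E14.5 to P0.5 was called in both tissues for 22 genes, in epithelium alone for 7, in fiber alone for 8 and in neither for 26. The same shares over all genes were not counted. A fall in both can be at most the 3.21% of all genes that fell in epithelium. Whether a gene fell more in one tissue was tested with an interaction term, the log2 change in fiber minus that in epithelium. It was lower for 5 genes (all genes 7.92%) and higher for 4 (all genes 3.77%), and the median over the 63 genes was -0.07. With no minimum fold it was lower for 14 (21.4%) and higher for 9 (20.6%). With library size only these counts were 24 lower and 0 higher, and the median of all genes moved to -0.68. Leaving out P0.5 fiber replicate 3 gave 2 lower, P0.5 fiber replicate 2 gave 11 and E14.5 fiber replicate 2 gave 10. In P0.5 fiber, replicate 3 held the lowest value of 36 of the 63 genes, and its lens epithelium markers summed to 221 CPM against 248 and 278 CPM in the others.

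**Figure D5:**
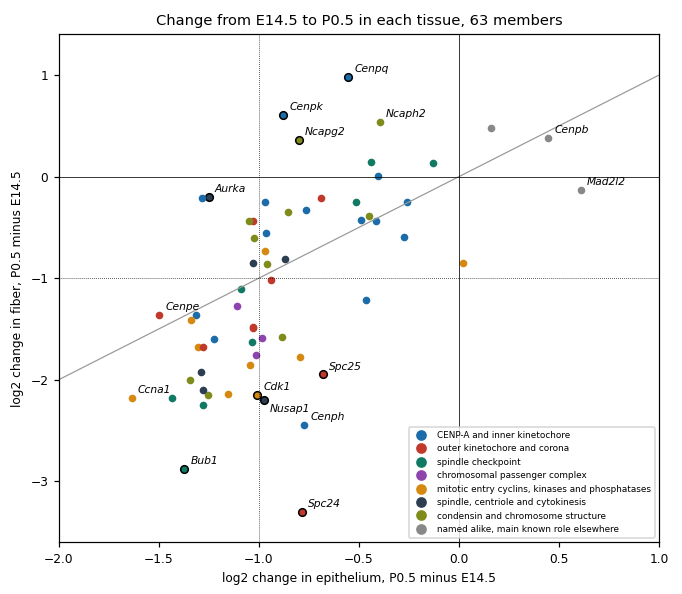
Log2 change from E14.5 to P0.5 in epithelium (horizontal axis) and in fiber (vertical axis) for each of the 63 genes, coloured by role, with equal changes along the grey diagonal; a black outline marks the 9 genes whose tissue difference changed. Spc24, Bub1, Spc25, Nusap1 and Cdk1 lie below the diagonal and Cenpq, Cenpk, Ncapg2 and Aurka above it.

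Among the genes called, the 3 largest falls of this difference were Spc24, Bub1 and Spc25; Cenph, at -1.67, did not pass the test. Spc25, another Ndc80 complex subunit, stood at 22.3, 21.9 and 25.8 CPM in E14.5 epithelium and 13.8 to 15.4 CPM at P0.5, and in fiber at 2.85, 1.50 and 2.11 CPM and 0.506, 0.798 and 0.315 CPM. In fiber the stages did not overlap, with a log2 change of -1.95 against -0.68 in epithelium. For Bub1 the changes were -2.88 in fiber and -1.37 in epithelium.

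Among the genes called, the 3 largest rises were Cenpq, Cenpk and Ncapg2, whose changes fell short of 2-fold in both tissues while pointing in opposite directions. The edgeR adjusted p was under 0.05 for all 3 in epithelium and for Cenpq alone in fiber. Cenpk, a subunit of the inner kinetochore, stood at 16.7, 13.8 and 11.8 CPM in E14.5 epithelium and 7.15, 7.30 and 8.39 CPM at P0.5, and in fiber at 1.19, 0.935 and 1.10 CPM and 0.886, 1.76 and 2.2 CPM (-0.88 and 0.61). Ncapg2 stood at 60.3, 60.3 and 59.3 CPM and 31.0, 31.4 and 40.7 CPM in epithelium, and at 7.89, 5.70 and 8.68 CPM and 10.4, 8.94 and 9.76 CPM in fiber (-0.80 and 0.36). For Cenpq the changes were -0.55 and 0.99, the latter called at 1.01 by DESeq2, and by edgeR without E14.5 fiber replicate 3 (1.22), P0.5 fiber replicate 2 (1.01) or P0.5 fiber replicate 3 (1.07). In fiber the P0.5 libraries of Cenpq and Ncapg2 were all above those of E14.5, while those of Cenpk overlapped.

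Genes of the same processes outside the 63 were counted from lists of related genes. Of 48 other mitosis genes, such as the kinesins Kif11 (-3.85) and Kif23 (-4.93), the transcription factor Foxm1 (-3.64) and the CENP-A chaperone Hjurp (-1.41), 44 were lower in fiber on average and none higher, with a median of -3.80. The 4 that were not called were Mis12 (-0.17), Racgap1 (-0.95), Zw10 (-0.51) and Zwint (0.52). Over time, 28 of the 48 fell in epithelium and 26 in fiber from E14.5 to P0.5, and none rose. All 12 genes of S phase were lower in fiber (median -2.93), from Rrm2 (-5.08) to Mcm2 (-1.63), and 5 fell in epithelium and 4 in fiber over time. Beside these counts, 22.2% of all genes tested were lower in fiber on average and 15.7% higher. From E14.5 to P0.5, 3.21% of all genes fell in epithelium and 5.24% in fiber, and 10.1% and 6.69% rose.

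The anaphase-promoting complex and cohesin act on the same chromosomes, and were counted with TMM scaling only. Of 15 genes of the anaphase-promoting complex, the target of the spindle checkpoint, none was lower in fiber and 3 were higher, Anapc13 (1.36), Anapc2 (1.09) and Anapc16 (1.06), with a median of 0.26, beside 22.2% lower and 15.7% higher among all genes. Of 11 cohesin genes only Esco2, the acetyltransferase that acts in S phase, was lower on average (-4.75), beside the same 22.2%, and the median was -0.37. At single stages 2 of the 11 were lower at E14.5 (all genes 19.4%) and at E18.5 (24.2%), and 1 at E16.5 (20.4%) and at P0.5 (24.5%).

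As a share of all counts in a library, the 63 genes made up 0.529% ± 0.017 (SD, n = 3) in E14.5 epithelium and 0.368% ± 0.022, 0.357% ± 0.017 and 0.293% ± 0.014 at the later stages. In fiber the shares were 0.0457% ± 0.0057, 0.0295% ± 0.0032, 0.0216% ± 0.0038 and 0.0232% ± 0.0014. Fiber shares are also set by the crystallins, which took 23.3% to 43.9% of fiber counts and 1.66% to 4.29% of epithelium counts, and by Rn45s (3.98% to 28.9% over all libraries). Every fiber library was below every epithelium library of its stage on this scale as well.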

How the data were processed

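The deposited table holds whole-number counts per gene symbol, 1 column per library, with no normalization by the authors. The submitters' processing notes name the build mm10, HTSeq 0.6.1, TopHat2 2.0.13, Cufflinks 2.2.1 with Cuffdiff, and Trim Galore 0.4.1, with no role or order. Libraries were stranded and depleted of ribosomal RNA per the labels' protocols. Genes were filtered with filterByExpr (minimum count 10, total 15), leaving 12427 of 12611. All 24 libraries entered 1 quasi-likelihood fit in edgeR 4.0.16 (8 group means, 16 residual degrees of freedom, TMM), and two-sided p-values were adjusted (Benjamini-Hochberg) across every gene in the fit. DESeq2 1.42.0, 2 other scalings, no filter, no fold minimum, a replicate block, the compared groups alone and leaving out each library were alternatives. SE, given for Cenpv alone, is the log2 change over the square root of F, which is approximate. The scripts were tested on simulated data. Intervals cover counting error only. No replicate was a copy of another. Positions are from GENCODE M21 (GRCm38), in which all 63 symbols matched 1 gene, and promoters are from RefSeq.

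Values in every library were given by rule for the gene of highest CPM in E14.5 epithelium per role, for those not called lower, and for the 3 largest falls and rises in P0.5 against E14.5. The genes, lists, pairs and tests were chosen with earlier results of these data known. Replicate numbers were not treated as pairs, since not every same-numbered pair correlated over 0.1.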

Additional observations from a re-analysis of the deposited data

Results flagged for a closer look

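The change from E14.5 to P0.5 differed between the tissues for 9 genes, by an edgeR test of the difference itself on the log2 scale (fiber change minus epithelium change). It was lower in fiber for Spc24 (-2.52), Bub1 (-1.51), Spc25 (-1.27), Nusap1 (-1.23) and Cdk1 (-1.14). These 5 of 63 genes are near the share of 7.92% lower among all genes tested. Of these, Bub1 was called without each of the 12 libraries compared in turn, while Cdk1 (-0.90) and Nusap1 (-0.79) were lost without P0.5 fiber replicate 3. Spc24 was lost without P0.5 fiber replicate 2 (-1.82) or replicate 3 (-2.02) and stood at -5.52 without P0.5 fiber replicate 1, where no count was left in P0.5 fiber, and Spc25 without P0.5 fiber replicate 3 or E14.5 fiber replicate 1 (-0.98).

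It was higher in fiber for Cenpq (1.54), Cenpk (1.49), Ncapg2 (1.16) and Aurka (1.05), where 3.77% of all genes tested were higher. With library size only none of these 4 was called, at 0.90, 0.85, 0.53 and 0.41, on a scale where the median of all genes was -0.68. Aurka was also lost with crystallins and Rn45s left out of the library size (0.91), and without E14.5 fiber replicate 2 (0.87), P0.5 epithelium replicate 1 (0.97) or P0.5 fiber replicate 2 (0.84). Over the same time markers of retina and pigment cells rose in epithelium, and the part of those cells was not tested.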

How the results depend on the processing

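The counts of genes lower in fiber stayed within 1.5 times the values given under every alternative, and 54 of 54 at E14.5 were also called by DESeq2. With library size only, the median of all genes moved to -1.23 averaged over stages, and with crystallins and Rn45s left out of it to -0.63. Under both, 0 genes were called higher in fiber at any stage or on average. Ncaph2 reversed to -1.02 and was called lower under the first. Both shifts of the median were larger than the averaged TMM differences of Cenpt (0.51) and Ncaph2 (0.19), so the direction of these genes depends on the scaling. At E14.5 the count higher was 0 with DESeq2, with no filter and with the replicate block. With no fold minimum, 2, 2, 3, 4 and 3 genes were higher in fiber (4 stages and average), 48, 4 and 19 were lower and 0, 2 and 1 higher in the epithelium steps, 57 were lower and 2 higher from E14.5 to P0.5 in epithelium, 1 was higher in the first fiber step, 5 were lower in the second, 3 were higher from E14.5 to P0.5 in fiber, and the tissue difference was lower for 14 and higher for 9. With library size only, 18 fell in epithelium to P0.5, 9 fell and 1 rose in fiber from E16.5 to E18.5, and the tissue difference was lower for 24 and higher for 0; without crystallins and Rn45s 2 fell in that fiber step and the difference was lower for 10. DESeq2 called 0 lower in the first epithelium step and 1 (Cenpq) higher in fiber to P0.5. Leaving out 1 library gave 0 to 1 higher in fiber at E14.5, 0 to 2 lower in the first epithelium step, 0 to 1 in the last, 0 to 3 lower and 1 to 2 higher in the second fiber step, 0 to 1 lower and 0 to 1 higher in the last, 0 to 1 higher in fiber to P0.5, and 2 to 11 lower for the tissue difference. The summed share without crystallins and Rn45s was 0.623%, 0.412%, 0.394% and 0.323% in epithelium and 0.0660%, 0.0473%, 0.0420% and 0.0443% in fiber. The cause of these changes was not tested. Same-numbered epithelium and fiber libraries correlated at -0.066 to 0.22, over 0.1 in 3 of 12 pairs, and 6 of 12 epithelium libraries correlated best with their own number; a weak pairing is therefore possible, and the replicate block gave 0 higher at E14.5, as above, and changed no other count by over 1.5 times. Low fiber counts limit single genes: in P0.5 fiber the median gene had 52 counts over 3 libraries.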
